A study of Mus musculus with 6 samples.

Results

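A set of 10 genes that mark mast cells and basophils, or that serve their granules and receptors, were followed in RNA from hematopoietic stem cells of mixed chimeras. They were the granule proteases Cma1, Cpa3, Prss34, Mcpt8 and Gzmb, the granule proteoglycan Srgn, the histamine-forming enzyme Hdc, the IgE receptor chains Fcer1a and Ms4a2, and the steroid-forming enzyme Cyp11a1. The genes were selected by name with the measured difference between the 2 genotypes already known, so their values in this contrast are a description and carry no test. All 10 occurred, each with 1 entry, in the deposited values, which list 26216 different names, and all 10 lay in the upper 50% of names by mean that entered the fit, which held 13108 names.

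RNA sequencing compared 3 libraries of Ltbr-/- with 3 libraries of Ly5.1 LT/ST-HSCs, the long-term and short-term stem cells of the bone marrow. Ltbr-/- cells (CD45.2) carry a homozygous deletion within the gene of the lymphotoxin-β receptor in every cell of the donor, and Ly5.1 cells (CD45.1) are receptor-proficient congenic controls. LSKs of both genotypes had been injected together into Ly5.1/Ly5.2 mice after lethal irradiation, so that both groups shared the irradiated recipient. Donor cells were sorted 6 weeks later by CD150 in the absence of CD48, within Annexin-V- Lin- cells positive for c-kit and sca1, and cells from different chimeras were pooled into the libraries. Donors were 13, 10 and 10 to 13 weeks old for Ltbr-/- replicates 1, 2 and 3 and 7 to 13 weeks old for all Ly5.1 replicates, and age cannot be fully told apart from genotype. The antibodies named for lineage depletion included none that is specific to mast cells or basophils.

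Mast cells and basophils arise from bone marrow progenitors and store histamine, proteoglycans and proteases in granules, which they release when antigen crosslinks IgE on the high-affinity receptor. That receptor has an α chain that binds IgE (Fcer1a), a β chain that amplifies the signal (Ms4a2) and a γ chain shared with other Fc receptors (Fcer1g). Connective tissue mast cells of the mouse are rich in chymase, tryptase and carboxypeptidase A3, whereas basophils hold Mcpt8 and Prss34. GATA2, together with GATA1, STAT5 and MITF, is known to control genes of these lineages.

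Since GATA factors are known regulators here, the 250 bases before each annotated start were read for AGATAA or its variant AGATAG, and also for TGATAA or its variant TGATAG, on both strands. The windows come from RefSeq on GRCm38.p6, run 5′ to 3′ on the strand of the gene and end at the base before the start, and 12 starts were given for the 10 genes. The following windows are those of the 4 genes whose values differed most between the genotypes and of Ms4a2, the IgE receptor chain with the most matches. Capitals mark a match on either strand.
Cma1, chr14:55944676-55944925, minus strand: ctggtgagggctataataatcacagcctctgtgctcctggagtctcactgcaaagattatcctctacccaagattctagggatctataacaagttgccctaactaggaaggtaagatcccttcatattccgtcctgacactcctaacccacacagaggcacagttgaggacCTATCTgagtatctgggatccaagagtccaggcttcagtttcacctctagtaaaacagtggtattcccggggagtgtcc
Cyp11a1 start 1, chr9:57997774-57998023, plus strand: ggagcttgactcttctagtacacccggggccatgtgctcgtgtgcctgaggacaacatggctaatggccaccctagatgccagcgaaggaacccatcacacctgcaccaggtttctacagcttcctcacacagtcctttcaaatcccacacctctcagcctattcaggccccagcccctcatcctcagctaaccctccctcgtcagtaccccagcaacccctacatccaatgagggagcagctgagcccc
Cyp11a1 start 2, chr9:58014702-58014951, plus strand: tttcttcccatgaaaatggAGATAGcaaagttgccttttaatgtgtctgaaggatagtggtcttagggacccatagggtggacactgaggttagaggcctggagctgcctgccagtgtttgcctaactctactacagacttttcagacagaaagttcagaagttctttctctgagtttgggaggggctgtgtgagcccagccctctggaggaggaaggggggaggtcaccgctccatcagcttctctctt
Cpa3, chr3:20242182-20242431, minus strand: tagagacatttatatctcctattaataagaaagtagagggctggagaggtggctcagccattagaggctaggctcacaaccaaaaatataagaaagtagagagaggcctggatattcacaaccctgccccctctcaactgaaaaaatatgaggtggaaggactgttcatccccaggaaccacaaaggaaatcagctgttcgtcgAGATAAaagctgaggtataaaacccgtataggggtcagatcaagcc
Prss34, chr17:25298144-25298393, plus strand: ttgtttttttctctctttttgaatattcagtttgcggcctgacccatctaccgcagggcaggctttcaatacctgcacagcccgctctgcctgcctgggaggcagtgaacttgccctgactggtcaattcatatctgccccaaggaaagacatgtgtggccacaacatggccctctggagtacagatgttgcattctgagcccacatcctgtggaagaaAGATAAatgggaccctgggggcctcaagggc
Ms4a2, chr19:11623720-11623969, minus strand: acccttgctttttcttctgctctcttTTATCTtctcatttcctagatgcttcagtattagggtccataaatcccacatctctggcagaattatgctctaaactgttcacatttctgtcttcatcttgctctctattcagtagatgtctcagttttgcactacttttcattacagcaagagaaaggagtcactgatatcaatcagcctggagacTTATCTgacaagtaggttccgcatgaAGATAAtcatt

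The match lay 79 bases before the start in Cma1, 46 in Cpa3 and 31 in Prss34, counted from its first base. In Cyp11a1 it lay 231 bases before start 2, and the window of start 1 held none. Ms4a2 held 3 matches, at 224, 37 and 11 bases, Fcer1a held 1 at 92 and Hdc held 1 at 221, whereas the windows of Mcpt8, Srgn and Gzmb held none. In all, 7 of the 12 windows, from 7 of the 10 genes, had a match. Of the 32851 promoters of the same length in the annotation 26.5% had at least 1, while 1.35% had 3 or more. The E-box letters CACGTG or CATGTG, read on both strands, occurred in 3 of the 12 windows (Cyp11a1 start 1 at 220, Prss34 at 100 and Fcer1a at 208 bases) and in 17.6% of all promoters, and no E-box match overlapped a GATA match. TTCNNNGAA, the letters bound by STAT5, occurred in none of the 12 windows and in 7.02% of all promoters. These matches describe letters and not binding.

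Ltbr itself was checked first. The normalized signal was read as 2 to the power of the regularized log value of the authors, a reading taken from the values themselves. For Ltbr it was 24.2, 26.4 and 23.1 in the Ltbr-/- replicates and 564, 549 and 522 in the Ly5.1 replicates. The log2 difference was -4.47 (SE 0.08, adjusted p = 2.15e-32, limma over all 13108 names), and every library fell on the side that its label names. Because the deposited values hold no read counts, the number of reads behind each value is unknown. The paper reports an average number of reads per sample, not counts per gene.

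Among all tested names, 356 were higher in Ltbr-/- with a fold of 1.5 or more and an adjusted p below 0.05, which is 2.72%, and 8 were lower, which is 0.0610%. At any fold the adjusted p was passed by 10.6% in the higher and by 4.18% in the lower direction. The 3 values of each group did not overlap in 30.4% of names, with Ltbr-/- higher in 17.0% and lower in 13.5%. Of the 10 mast cell and basophil genes, 2 (Cma1 and Cyp11a1) passed both thresholds, 4 were higher and 1 lower at any fold, and 6 had groups that did not overlap. Nothing is read from these counts, since this contrast was known when the genes were picked. Their median log2 difference was 0.08, beside -0.01 over all tested names, whose range from percentile 5 to percentile 95 was -0.24 to 0.41.

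Of the granule genes, Cma1, Cpa3 and Srgn were higher in every Ltbr-/- library. Cma1 encodes the mast cell chymase, a chymotrypsin-like protease of the granule, and lies at chr14:55941451-55944675 on the minus strand of GRCm38.p6. Its signal was 5354, 5262 and 5795 in the Ltbr-/- replicates and 2032, 2102 and 2452 in the Ly5.1 replicates. Each Ltbr-/- library was above each Ly5.1 library, with means of 5470 ± 285 and 2195 ± 225 (SD, n = 3 each) and a log2 difference of 1.32 (SE 0.08), or 2.5-fold.

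Cpa3 encodes carboxypeptidase A3, which trims peptides from the C terminus inside the granule. The gene lies at chr3:20215616-20242209. Its signal was 1363, 1308 and 1237 in Ltbr-/- and 817, 840 and 1006 in Ly5.1. The groups were again apart, but by less than in Cma1, with means of 1303 ± 63.2 and 888 ± 103 (SD, n = 3 each), a log2 difference of 0.56 (SE 0.09) and a fold of 1.47.

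Srgn encodes serglycin, the core protein whose sugar chains hold proteases and histamine in the granule, and it is also made by many other blood cells. It lies at chr10:62493833-62527445. The values were 7749, 8325 and 8298 in Ltbr-/- against 6245, 5796 and 6901 in Ly5.1. The groups did not overlap, and the log2 difference was 0.37 (SE 0.07). This size depended on scaling, and fell to 0.11 under quantile normalization.

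**Figure D1:**
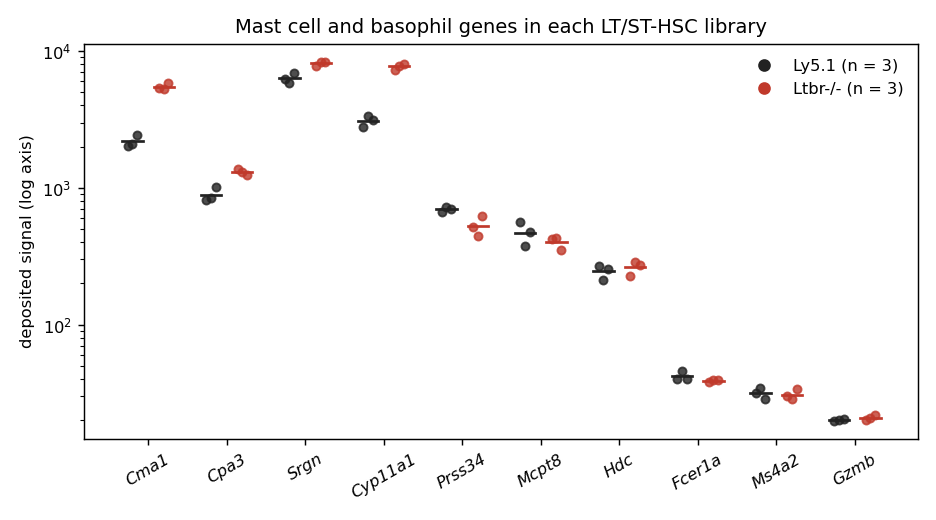
Normalized signal of the 10 genes in each of the 6 libraries on a log axis, with red points for the 3 Ltbr-/- replicates, black points for the 3 Ly5.1 replicates and lines at the group means. In Cma1, Cyp11a1, Cpa3 and Srgn every Ltbr-/- point lies above every Ly5.1 point, in Prss34 and Fcer1a below, and in Mcpt8, Ms4a2, Hdc and Gzmb the points overlap.

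Cyp11a1 encodes the mitochondrial cytochrome P450 that cuts the side chain of cholesterol to form pregnenolone, the first step of steroid synthesis. The gene lies at chr9:57998024-58027031 on the plus strand. The signal was 7324, 7736 and 8090 in the Ltbr-/- replicates and 2802, 3358 and 3145 in the Ly5.1 replicates. The lowest Ltbr-/- library was above the highest Ly5.1 library by far more than the spread within either group. Means were 7717 ± 384 and 3102 ± 281 (SD, n = 3 each), the log2 difference was 1.32 (SE 0.08) and the fold was 2.49. Under quantile normalization the log2 difference was 1.14.

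Steroid synthesis beyond Cyp11a1 was read from 19 other genes. Of these, 8 were at a signal of 1 in every library, among them Hsd3b1, Hsd3b6, Cyp21a1, Cyp11b1, Cyp11b2 and Nr5a1, which act after pregnenolone or switch on the pathway in the adrenal gland. Of the 10 tested, none passed both thresholds and 1 (10.0%) rose at any fold, beside 10.6% of all tested names. Their median log2 difference was 0.08. Por, the reductase that feeds electrons to microsomal P450 enzymes and the most abundant gene of the list, had 2734 ± 155 in Ltbr-/- and 2640 ± 239 in Ly5.1 (SD, n = 3 each; adjusted p = 0.735, limma). The gene that rose was Tspo, a cholesterol-binding protein of the outer mitochondrial membrane, with 1670 ± 82.6 against 1197 ± 79.5 and a log2 difference of 0.48 (SE 0.09, adjusted p = 5.66e-05, limma). Star, which delivers cholesterol to the mitochondrion, was low in both groups, with 24.2 ± 2.21 and 22.6 ± 0.711 (adjusted p = 0.179, limma). For Fdx1 and Fdxr, the ferredoxin and reductase that supply Cyp11a1 with electrons, the log2 differences were 0.26 and 0.23 (adjusted p = 0.0733 and 0.0876, limma). Tspo, Star, Fdx1 and Fdxr were picked for mention after their values were seen.

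The basophil proteases were not higher. Prss34, a tryptase-like protease of basophils at chr17:25298394-25300168, had a signal of 518, 441 and 621 in Ltbr-/- and 669, 718 and 699 in Ly5.1. All 3 Ltbr-/- values were below all Ly5.1 values, and the Ltbr-/- replicates spread more, with means of 527 ± 90.0 and 696 ± 24.4 (SD, n = 3 each) and a log2 difference of -0.41 (SE 0.10). Mcpt8, the other basophil protease, lies at chr14:56082163-56085499 and had 423, 426 and 350 in Ltbr-/- and 561, 374 and 475 in Ly5.1. Here the groups overlapped, and the log2 difference of -0.22 (SE 0.11) ranged from -0.37 without Ly5.1 replicate 2 to -0.08 without Ly5.1 replicate 1.

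The receptor chains for IgE were low and differed little. Fcer1a (chr1:173221269-173227232), the chain that binds IgE, had a signal of 37.8, 39.3 and 39.3 in Ltbr-/- and 39.8, 45.8 and 39.8 in Ly5.1. The groups were just separate, with a log2 difference of -0.10 (SE 0.06), which was -0.04 without Ly5.1 replicate 2 and -0.14 without Ly5.1 replicate 1 or 3. Ms4a2 (chr19:11615517-11623790), the β chain, had 30.2, 28.4 and 33.6 in Ltbr-/- and 31.5, 34.6 and 28.5 in Ly5.1. The groups overlapped, and the log2 difference was -0.04 (SE 0.06).

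The gene of the γ chain rose in Ltbr-/- cells. Fcer1g had a signal of 1497, 1424 and 1579 in Ltbr-/- and 922, 726 and 888 in Ly5.1, with a log2 difference of 0.83 (SE 0.09, adjusted p = 5.6e-09, limma). Unlike the α and β chains, Fcer1g serves several receptors of myeloid and lymphoid cells. It was the 1 gene of 19 tested in the list of IgE receptor signalling that passed both thresholds. This was 5.26% of the list, beside 2.72% of all tested names. At any fold 3 of the 19 (15.8%) rose, beside 10.6% of all tested names, and none fell. The median log2 difference was -0.00. The others that rose were the adaptor genes Lat, by 0.26, and Grap2, by 0.30 (adjusted p = 0.0422 and 0.00702, limma), while the kinases Syk (-0.23, adjusted p = 0.0717) and Lyn (-0.01, adjusted p = 0.954) did not pass. Lat missed the adjusted p in 7 of 15 alternatives and Grap2 without Ltbr-/- replicate 2 (0.0803). Lat, Grap2, Syk and Lyn were picked for mention after their values were seen.

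Hdc encodes histidine decarboxylase, the enzyme that makes histamine, at chr2:126593659-126624025. Its signal was 228, 286 and 274 in Ltbr-/- and 269, 211 and 255 in Ly5.1. The groups overlapped, with a log2 difference of 0.10 (SE 0.10) that ranged from -0.00 without Ly5.1 replicate 2 to 0.20 without Ltbr-/- replicate 1. Of 5 tested genes around histamine and monoamines, none passed both thresholds and 1 (20.0%) fell at any fold, beside 4.18% of all tested names. Slc18a2, the transporter that loads histamine into granules and the most abundant of them, had 2264 ± 38.0 in Ltbr-/- and 1937 ± 150 in Ly5.1 (SD, n = 3 each; log2 difference 0.23, adjusted p = 0.0555, limma). The gene that fell was Slc22a3, a cation transporter that carries histamine across the cell membrane, with a log2 difference of -0.31 (adjusted p = 0.0111, limma).

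Gzmb encodes granzyme B, a protease of cytotoxic lymphocytes that mast cells can also make, at chr14:56258836-56262334. Its signal was 20.0, 20.9 and 21.8 in Ltbr-/- and 19.7, 20.2 and 20.4 in Ly5.1. These values overlapped and were close to 14.4, the lowest mean that was tested.

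**Figure D2:**
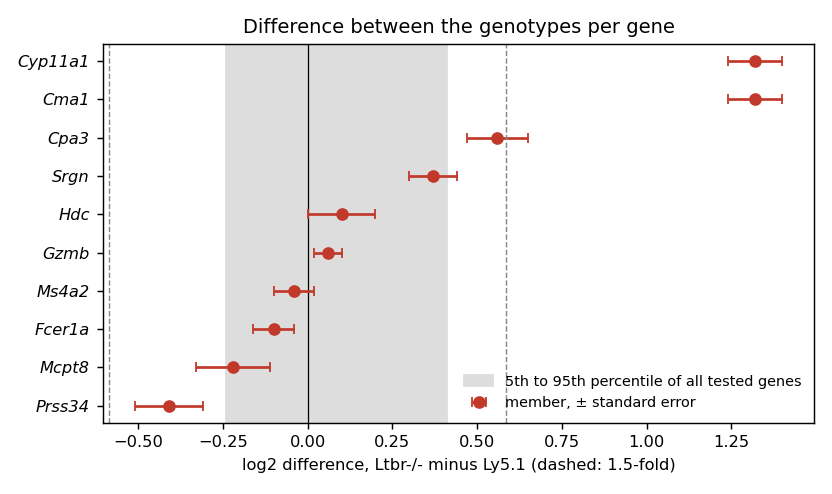
Log2 difference of the 10 genes, Ltbr-/- minus Ly5.1, as points with bars of 1 SE, over a grey band from percentile 5 to percentile 95 of all 13108 tested names (-0.24 to 0.41) and dashed lines at a fold of 1.5. Cma1 and Cyp11a1 lie at 1.32 and Cpa3 at 0.56, above this range, Prss34 lies at -0.41, below it, and the other 6 lie within it.

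Levels of different genes were set side by side only per kilobase of the longest transcript. On this scale the Ltbr-/- mean was 5020 ± 262 for Cma1, 4700 ± 188 for Srgn and 3640 ± 181 for Cyp11a1 (SD, n = 3 each). Cpa3 followed at 899 ± 43.6, Mcpt8 at 478 ± 51.5 and Prss34 at 432 ± 73.8. Hdc stood at 110 ± 12.8, Fcer1a at 38.9 ± 0.86, Gzmb at 14.6 ± 0.651 and Ms4a2 at 12.9 ± 1.11. Of the 76-base windows of their transcripts, 1.58% in Cma1, 1.6% in Ms4a2 and none in the other 8 genes also occur in another gene. In the order of levels the ranges of mean ± SD overlapped for Cma1 and Srgn, for Mcpt8 and Prss34, and for Gzmb and Ms4a2.

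The order was different in Ly5.1 cells. Srgn came highest with 3660 ± 322 per kilobase, before Cma1 with 2010 ± 206 and Cyp11a1 with 1460 ± 132 (SD, n = 3 each). Cpa3 with 613 ± 71.4, Prss34 with 570 ± 20.0 and Mcpt8 with 562 ± 112 could not be told apart by their SDs, nor could Gzmb with 14.0 ± 0.256 and Ms4a2 with 13.2 ± 1.28. Hdc stood at 102 ± 12.8 and Fcer1a at 41.9 ± 3.49. By the mean of all 6 libraries without division by length, Srgn was above 98.5%, Cyp11a1 above 97.3% and Cma1 above 95.5% of tested names, while Gzmb was above 3.8%.

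Members of the protease families lie in clusters, and the values there were uneven. The chymase cluster on chromosome 14 spans 321 kb from Cma1 to Gzmb and holds 15 protein-coding genes, of which 9 were at 1 in every library and 4 were tested. Cma2, which lies 9.53 kb from Cma1, was among those at 1, as were Mcpt1, Mcpt2 and Mcpt9. Mcpt4, the major chymase of connective tissue mast cells, lies 118 kb from Cma1 and had a signal of 4.82 to 4.95 over all 6 libraries. Gzmc, at 290 kb, had 3.26 to 3.39.

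Ctsg, which encodes the neutrophil and mast cell protease cathepsin G, lies 158 kb from Cma1 and went the other way. Its signal was 1083, 1071 and 993 in Ltbr-/- and 1518, 1306 and 1578 in Ly5.1, a fall by 0.48 on the log2 scale (SE 0.09, adjusted p = 0.000106, limma) that missed the fold threshold. It was the 1 tested gene of 11 found in the list of other granule proteases, and 7 of the 11 were at 1 in every library. In the tryptase cluster on chromosome 17, which spans 76 kb, Prss34 was the 1 gene tested. Prss29, Tpsb2 and Tpsg1 were at 1 in every library, Prss28 had 3.56 to 3.71, and Tpsab1, a pseudogene in the annotation, had 5.40 to 5.78.

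**Figure D3:**
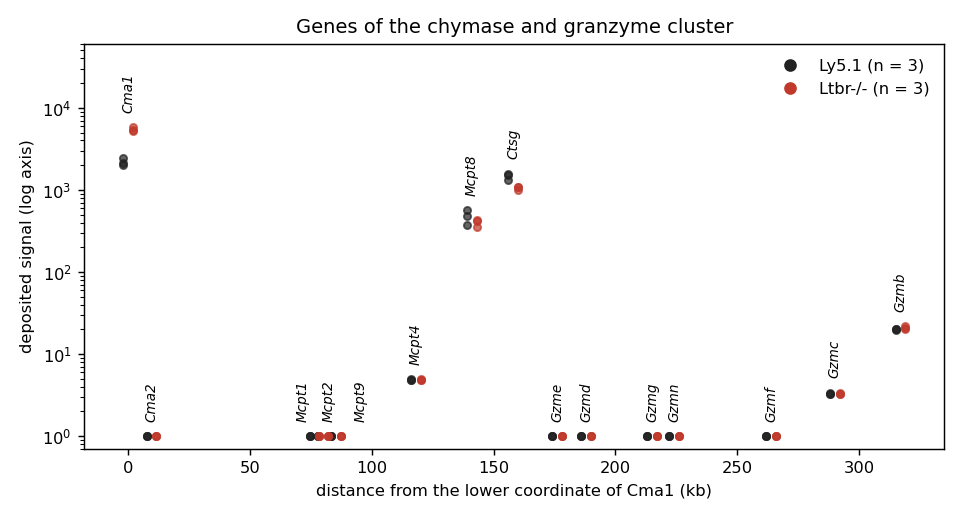
Normalized signal of the genes of the chymase cluster in each library on a log axis (red, 3 Ltbr-/- replicates; black, 3 Ly5.1 replicates), against the distance in kb from the lower coordinate of Cma1. At Cma1 (0 kb) the Ltbr-/- points lie above the Ly5.1 points, at Ctsg (158 kb) below, and 9 genes lie at 1.

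The wider programme of these lineages was read from related genes. Outside the 10 genes, 9 lists of related genes held 162 names, of which 161 were found, 28 were at 1 in every library and 111 were tested. Of these, 7 (6.31%) rose past both thresholds and none fell, and at any fold 18 (16.2%) rose, 4 (3.6%) fell and 89 did not pass. The share over all tested names was 2.72% for both thresholds, and 10.6% up and 4.18% down at any fold. Their median log2 difference was 0.02, beside -0.01 over all tested names. The lists were written with earlier results of these data known, and Alox5, Cst7, Cd63 and Nfil3 were already in a list of changed genes that the study drew from these libraries, while Fcer1g was known from earlier results, so that they are not independent evidence of a direction.

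Among mediators, Alox5, which encodes the 5-lipoxygenase that starts leukotriene synthesis, rose most. Its signal was 1632, 1806 and 1845 in Ltbr-/- and 835, 891 and 756 in Ly5.1, with a log2 difference of 1.09 (SE 0.09, adjusted p = 2.43e-12, limma). Of the 17 tested mediator genes the other 16 did not pass at any fold, so that 5.88% rose, beside 10.6% of all tested names. Alox5ap, the partner protein of the lipoxygenase, was among them, with 0.13 (adjusted p = 0.301, limma).

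Among transcription factors, 2 of 19 tested (10.5%) rose past both thresholds, beside 2.72% of all tested names. At any fold 5 (26.3%) rose and 1 (5.26%) fell, beside 10.6% and 4.18% of all tested names. Nfil3, a leucine zipper factor with known roles in lymphoid cells and in IgE class switching, had 1049, 1285 and 1171 in Ltbr-/- and 611, 572 and 612 in Ly5.1 (log2 difference 0.96, SE 0.09, adjusted p = 1.62e-10, limma). Bhlhe40, a repressor that shapes cytokine production in T cells, had 583 ± 34.9 against 378 ± 36.7 (SD, n = 3 each; log2 difference 0.63, SE 0.10, adjusted p = 4.25e-06, limma), and its fold was under 1.5 without Ltbr-/- replicate 2 (0.58) or Ly5.1 replicate 1 (0.55).

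The other tested factors of the list moved less. Lmo4 (0.38, adjusted p = 0.0036), Runx1 (0.27, adjusted p = 0.0341) and Tfec (-0.28, adjusted p = 0.0498, limma) passed at any fold. Under quantile normalization Runx1 and Tfec did not pass (adjusted p = 0.0587 and 0.0506, limma). Gata2 had 4637 ± 89.1 in Ltbr-/- and 3993 ± 235 in Ly5.1 (SD, n = 3 each; log2 difference 0.22, SE 0.07, adjusted p = 0.0402, limma), but 0.08 (adjusted p = 0.456, limma) under quantile normalization, and it missed the adjusted p in 8 of 15 alternatives. Gata1 had 0.20 (adjusted p = 0.135, limma), Mitf 0.05 (adjusted p = 0.645) and Cebpa -0.08 (adjusted p = 0.391). Gata1, Gata2, Mitf, Cebpa, Lmo4, Runx1 and Tfec were picked for mention after their values were seen.

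At the cell surface, 2 of 15 tested genes (13.3%) rose past both thresholds, and at any fold 6 (40.0%) rose and none fell. Over all tested names 2.72% rose past both thresholds and 10.6% at any fold. Csf2rb2, a β chain of the interleukin-3 receptor of the mouse, had 894, 906 and 849 in Ltbr-/- and 463, 483 and 629 in Ly5.1 (log2 difference 0.76, SE 0.10, adjusted p = 2.02e-07, limma). Its near copy Csf2rb, the β chain shared with the receptors for interleukin-5 and GM-CSF, had 0.48 (adjusted p = 5.05e-05, limma). In 10.9% and 10.5% of the 76-base windows of their transcripts the sequence also occurs in another gene, so how reads were split between them is uncertain. Il3ra, the α chain, had 0.47 (adjusted p = 0.000325, limma).

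Cd63, a tetraspanin of granule membranes that appears on the surface when basophils degranulate, had 2425 ± 131 against 1591 ± 63.4 (SD, n = 3 each; log2 difference 0.61, SE 0.08, adjusted p = 3.42e-07, limma). It was under the fold threshold with 0.57 under quantile normalization or without Ltbr-/- replicate 3, and with 0.58 without Ly5.1 replicate 1. Kit, the stem cell factor receptor that mast cells share with stem cells, had 5393 ± 192 and 5981 ± 127 (adjusted p = 0.154, limma), and Il1rl1, the interleukin-33 receptor, had a log2 difference of -0.00 (adjusted p = 0.991). Csf2rb, Il3ra, Kit and Il1rl1 were picked for mention after their values were seen.

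Of 8 tested genes of the granzyme list, 1 rose past both thresholds and 2 rose at any fold. Cst7, which encodes cystatin F, an inhibitor of lysosomal cysteine proteases, had 884, 814 and 858 in Ltbr-/- and 468, 436 and 518 in Ly5.1 (log2 difference 0.85, SE 0.09, adjusted p = 3.65e-09, limma). Ctsc, the cathepsin that activates granzymes and chymases and was picked after its value was seen, had 0.32 (adjusted p = 0.0158, limma). Of 17 tested genes for the synthesis of heparin and related chains, which are built on serglycin, none passed both thresholds. At any fold 1 (5.88%) fell, beside 4.18% of all tested names, and the median log2 difference was -0.06. Ext2, a polymerase of heparan sulfate and the most abundant of them, had 1469 ± 130 and 1529 ± 23.3 (adjusted p = 0.698, limma), and the gene that fell was Csgalnact1, which starts chondroitin chains (-0.35, adjusted p = 0.0102, limma).

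**Figure D4:**
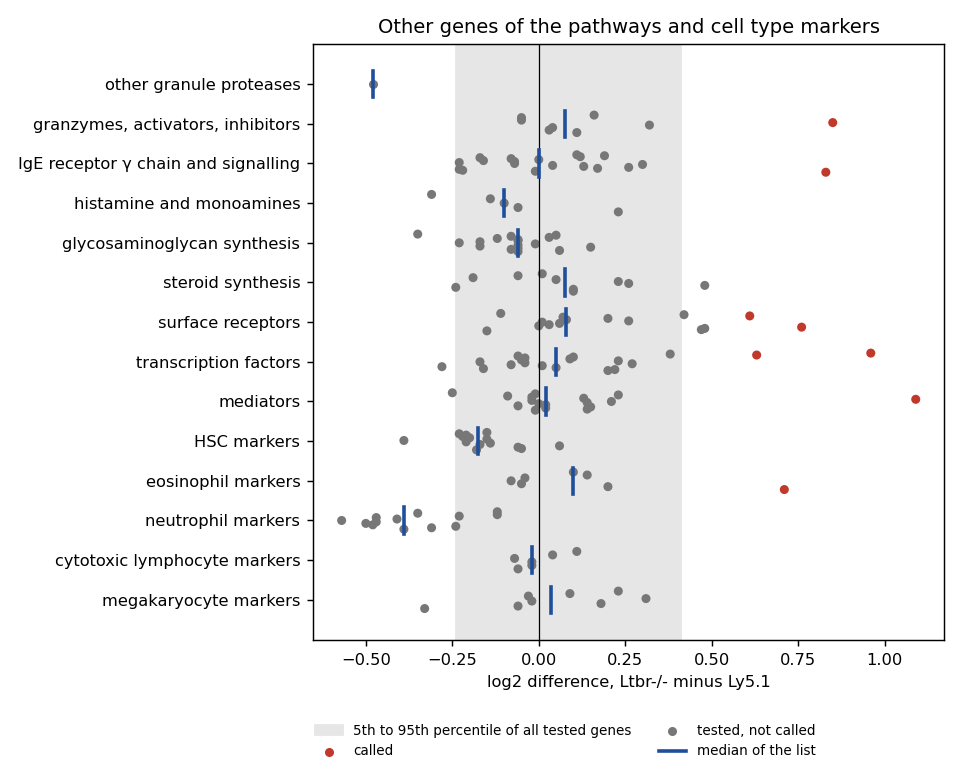
Log2 differences, Ltbr-/- minus Ly5.1, of the tested genes in the 9 lists around the 10 genes and in the lists of other cell types, 1 row for each list, with red points for genes past both thresholds, grey points for the others, blue lines at the medians and a grey band from percentile 5 to percentile 95 of all tested names. The 7 red points of the 9 lists (Alox5, Nfil3, Cst7, Fcer1g, Csf2rb2, Bhlhe40 and Cd63) and that of Epx lie above the band, and the neutrophil markers all lie below 0.

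Markers of whole cell types were summed in each library. In bulk RNA, fewer cells of a type and less RNA per cell cannot be told apart. For the 14 mast cell markers the summed signal was 14755 to 14911 in Ltbr-/- and 11053 to 11578 in Ly5.1. Without the markers that are among the 10 genes, 9 were left, of which 3 were tested and none called, and the sum was 7531 to 7831 against 7797 to 8267. Most of this smaller sum was Kit, which was also used to sort the cells, with means of 5393 in Ltbr-/- and 5981 in Ly5.1. Slc18a2 made up most of the rest and went the other way, with means of 2264 and 1937. Tpsb2, Mrgprb1 and Mrgprb2, which define mature mast cells, were at 1 in every library, and Hpgds was at 9.5 to 10.3.

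For the 12 basophil markers the sum was 8247 to 8664 in Ltbr-/- and 7006 to 7807 in Ly5.1, and without the 6 that are among the 10 genes it was 5717 to 6064 against 4728 to 5303. Most of this smaller sum was Gata2, at 4637 ± 89.1 against 3993 ± 235 (SD, n = 3 each). The log2 difference of Gata2 was 0.22 as deposited and 0.08 under quantile normalization. Of the 4 remaining markers that were tested, none was called and 3 (75.0%) rose at any fold, beside 10.6% of all tested names. Those that rose were Il3ra and Gata2, given before, and Cd200r3, a basophil surface receptor picked after its values were seen. Cd200r3 had 127 ± 1.40 and 106 ± 7.02 (SD, n = 3 each; log2 difference 0.26, adjusted p = 0.026, limma). Gata2 missed the adjusted p in 8 of 15 alternatives and Cd200r3 in 4 of 14. Il4 was flat (-0.01, adjusted p = 0.956, limma). Ccr3, at 3.93 to 4.07, and Grm6, at 2.13 to 2.19, were too low to be tested.

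All 14 stem cell markers lay in the tested upper 50% of names by mean. None was called, 13 had log2 differences below 0 and 3 (21.4%) fell at any fold, beside 4.18% of all tested names. Those 3, picked after their values were seen, were Ly6a (-0.39, adjusted p = 0.0016), Meis1 (-0.23, adjusted p = 0.038) and Tie1 (-0.21, adjusted p = 0.0499, limma). Kit, Ly6a (sca1) and Slamf1 (CD150) were also used to sort the cells. The median log2 difference of the list was -0.17, with summed signals of 18803 to 19691 in Ltbr-/- and 22052 to 22073 in Ly5.1. The 13 neutrophil granule markers all had log2 differences below 0, and 10 (76.9%) fell at any fold, beside 4.18% of all tested names. None was called as deposited, and their sums were 46670 to 47469 against 60955 to 66039. Under quantile normalization 6 of the 13 (Camp, Ltf, Mpo, Ngp, S100a8 and S100a9) were lower past both thresholds, with Mpo, the peroxidase of their granules, moving from -0.39 to -0.75. Camp, at -0.57 as deposited, also passed both without Ly5.1 replicate 1 or 2.

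Of 7 tested eosinophil markers 1 (14.3%) was called higher, beside 2.72% of all tested names. This was Epx, the eosinophil peroxidase, with 540, 666 and 595 in Ltbr-/- and 307, 379 and 421 in Ly5.1 (log2 difference 0.71, SE 0.10, adjusted p = 2.2e-06, limma), which was 0.58 without Ly5.1 replicate 1. The sums of the eosinophil list were 2318 to 2683 and 1982 to 2231, mostly Prg2, at 1525 ± 169 against 1326 ± 156 (SD, n = 3 each). Sums of the 11 cytotoxic lymphocyte markers were 1194 to 1311 and 1262 to 1374. Most of that was Nkg7, at 1030 ± 58.7 against 1074 ± 68.5 (SD, n = 3 each). For the 9 megakaryocyte markers the sums were 13695 to 14496 and 11090 to 12431. None was called in the lymphocyte or the megakaryocyte list. The megakaryocyte sum was mostly Itga2b, the αIIb integrin, at 11640 ± 347 against 9380 ± 556 (SD, n = 3 each), whose log2 difference of 0.31 was 0.01 under quantile normalization. Of the 8 tested megakaryocyte markers 4 were above and 4 below 0, with a median of 0.03, and Pf4, a platelet chemokine, had -0.33 (adjusted p = 0.024, limma), which missed the threshold in 4 of 15 alternatives. The part that other cells had in the values of the 10 genes was not tested.

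The tested names whose profiles over the 6 libraries lay closest to Cma1 and Cyp11a1 belonged to several other functions. Likeness was measured as the Euclidean distance of log2 values centred on the mean of the 6 libraries, in which the difference between the groups takes the largest share. The nearest to Cma1 were Ifitm1 at 0.0596, Mt1 at 0.0761, Mt2 at 0.144, Aldoa at 0.162 and Rhox5 at 0.175, and Cyp11a1 ranked 7 at 0.24. The nearest to Cyp11a1 were Rhox5 at 0.172, Mt1 at 0.208, Cma1 at 0.24, Ifitm1 at 0.262 and Hmox1 at 0.284. Ifitm1 is an interferon-induced membrane protein, Mt1 and Mt2 are metallothioneins that bind metal ions, Aldoa is a glycolytic enzyme and Hmox1 degrades heme.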

How the data were processed

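Total RNA of sorted cells was made into stranded mRNA libraries and sequenced as single reads by the authors, who assembled the reads with SeqMan NGen and quantified genes with ArrayStar. The submitters' processing notes name DESeq2, GRCm38 and mm10. The deposited values are a normalized signal per gene and sample; that they equal 2 to the power of a regularized log value was taken from the values, which are never negative (lowest 0.254, below 1 in 821 of 26216 names) and exactly 1 in all samples in 9034 names. Regularized logs include size factors and shrink differences of low genes, and the read counts of single genes are unknown.

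Groups were taken from the sample labels. Of repeated names, only the entry of highest mean was used. Names in the upper 50% by mean (13108) were fitted on log2 signal without a pseudocount with lmFit and eBayes with trend (limma 3.58.1, R 4.3.3), with Benjamini-Hochberg adjustment over all of them and calls at a fold of 1.5 or more with an adjusted p below 0.05. The fit was also run on simulated independent normal values with planted differences, which checks the code only. That setting does not copy the shrinkage of regularized logs or the pooling of chimeras. The study calls the libraries biological replicates pooled from chimeras, and the labels do not say which libraries share a chimera.

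The 10 genes and all lists were chosen with earlier results of these data known. Named were the 10 genes, up to 4 called genes of each list by size or otherwise its most abundant gene, mast cell and basophil markers at 1 in all samples, the 5 nearest profiles to Cma1 and Cyp11a1, neighbours in the protease clusters and Ltbr; Siglecf, Spi1, Aoc1 and Ptgdr2 were matched by an older symbol, and Mcpt10 was not matched. Windows of 76 bases shared between genes came from GENCODE M21 transcripts, positions and promoters from RefSeq. Alternatives were other filters, quantile normalization, median centring, a pseudocount of 1, other variance models, no fold threshold, summed entries, the replicate number as a block and leaving out each sample.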

Additional observations from a re-analysis of the deposited data

How the results depend on the processing

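No direction was reversed under any alternative for a result that was called. Without a fold threshold, 1388 names were higher and 548 lower in Ltbr-/- (356 and 8 with it), and 18 rose and 4 fell in the lists (7 and 0 with it). Under quantile normalization 261 were higher and 28 lower, and with the upper 25% of names 4 were lower. Quantile normalization also moved the log2 difference of Cyp11a1 from 1.32 to 1.14 and of Srgn from 0.37 to 0.11; the cause was not tested. When 1 library was left out, 334 to 398 names were higher and 8 to 12 lower, and 5 to 7 list genes were called, the fewest without Ly5.1 replicate 1. In these fits Cma1 ranged from 1.27 to 1.4 and Cyp11a1 from 1.25 to 1.38. Ms4a2 ranged from -0.11 to 0.03, with both signs. Of 9 called genes named outside the 10 genes and the nearest profiles, 3 (Bhlhe40, Cd63 and Epx) lost the fold threshold in some fit. Among the named genes that passed at any fold only, Gata2, Lat, Cd200r3, Pf4 and Ctsc missed the adjusted p in 8, 7, 4, 4 and 3 alternatives. Slc22a3 and Csgalnact1 missed it in 2 each, and Grap2 and Itga2b in 1 each. For Cd200r3, Ctsc, Slc22a3, Csgalnact1 and Grap2 this was each time when 1 library was left out. Runx1 and Tfec missed it under quantile normalization. Deviations of same-numbered replicates from their group means had correlations of 0.0314, -0.0052 and 0.0899. With 3 libraries in each group these values cannot tell whether the numbers pair the samples. With the replicate number as a block 356 names were higher and 8 lower, and 7 list genes were called, and Cma1 and Cyp11a1 kept 1.32. The unknown read counts limit what can be said of low genes such as Gzmb, Ms4a2 and Fcer1a.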
